A study of Mus musculus with 8 samples.

Results

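The T cell receptor (TCR) complex and the proteins that act directly downstream of it were described here by the transcripts of 42 genes, out of 22829 genes listed for 8 samples of mouse Th17 cells. The 42 members were taken by gene symbol, and each had to reach a mean of at least 10 normalized counts over the 8 samples. All 42 of the listed symbols were found and all 42 passed, as did 16982 genes in the whole table. A normalized count is the number of reads on a gene divided by 1 size factor per sample.

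T cells of ROR-γt-/- mice, which lack the transcription factor that directs Th17 differentiation, were reconstituted by lentivirus with WT-ROR-γt (4 samples) or with K187R-ROR-γt (4 samples), in which the lysine that receives SUMO is changed to arginine, and RNA seq was performed after culture under Th17 conditions. The study's methods describe the cells as CD4+ T cells purified from splenocytes with magnetic beads. By the sample labels and these methods, all 8 samples share the ROR-γt-/- background and the culture, and the introduced form of ROR-γt differs between the groups. The design text of the series instead speaks of WT and mutant mice, 4 of each, and does not mention reconstitution, and the sources do not settle this difference. The age of the mice and the share of transduced cells are not given for these samples, it is not stated whether the cells were restimulated before RNA isolation, and no sample label names an animal or culture, so the p-values below measure the spread between these samples, which may be technical.

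The TCR recognises peptide on MHC through its alpha and beta chains, but signals through the CD3 chains (Cd3d, Cd3e, Cd3g) and the zeta chain (Cd247), whose cytoplasmic tails carry tyrosine motifs known as ITAMs. The kinase Lck, held by the coreceptors CD4 or CD8, phosphorylates these tyrosines, Zap70 docks on them and phosphorylates the scaffolds Lat and Slp-76 (Lcp2), and phospholipase Plcg1, protein kinase C theta (Prkcq) and calcineurin carry the signal to NF-κB and NFAT. Some phosphatases, the Cbl ubiquitin ligases and diacylglycerol kinases end or limit the signal.

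The ITAMs are the sites that Lck and Fyn phosphorylate and on which Zap70 docks, and for that reason the stretches that encode them are printed. They were located by translating the GENCODE M21 transcripts on GRCm38 and searching for a tyrosine followed after 2 residues by leucine or isoleucine, a spacer of 6 to 8 residues, and the same motif again. The search found 1 ITAM in each CD3 chain and 3 in the zeta chain. Sequences run 5′ to 3′ on the coding strand, from the first tyrosine codon to the last leucine or isoleucine codon, and capitals mark the 2 tyrosine codons. Each stretch is joined over 1 exon boundary, so the genomic span given is longer than the sequence.
Cd3d, chr9:44986095-44986311, plus strand, exons 4 and 5, codons 149 to 163: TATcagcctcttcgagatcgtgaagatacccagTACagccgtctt
Cd3e, chr9:44999549-45000440, minus strand, exons 7 and 8, codons 170 to 184: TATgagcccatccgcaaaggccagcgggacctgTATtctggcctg
Cd3g, chr9:44970735-44971268, minus strand, exons 5 and 6, codons 160 to 174: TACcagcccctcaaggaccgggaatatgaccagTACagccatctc
Cd247, ITAM 1, chr1:165856451-165857454, plus strand, exons 3 and 4, codons 72 to 86: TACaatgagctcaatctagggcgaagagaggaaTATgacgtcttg
Cd247, ITAM 2, chr1:165858473-165859260, plus strand, exons 5 and 6, codons 111 to 126: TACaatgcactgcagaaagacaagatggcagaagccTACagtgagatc
Cd247, ITAM 3, chr1:165859819-165861042, plus strand, exons 7 and 8, codons 142 to 156: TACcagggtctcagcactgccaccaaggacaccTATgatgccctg
The spacer was 8 residues in ITAM 2 of the zeta chain and 7 residues in the other 5, which makes that stretch 48 bases long and the others 45 bases.

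Between 52456804 and 74676721 reads per sample fell on genes, and 3 reads, taken as the smallest detectable count, were worth 2.54 to 3.56 normalized counts, which allows for counting error alone. Clustering on the 16940 tested genes that are not members placed the samples in 3 sets, each of which held both groups: WT 1, WT 3 and K187R 1 (set 1), WT 2, K187R 2 and K187R 3 (set 2), and WT 4 and K187R 4 (set 3). These sets are not a batch that the labels name. Xist, the RNA of the inactive X chromosome, was at 13564 to 17373 normalized counts in set 2 and at 3.56 to 23.7 in the other sets, while Ddx3y, a gene of the Y chromosome, was at 6774 to 10771 in set 2 and at 9145 to 13453 in the others. Summed myeloid markers ran from 21606 to 65845 in WT and from 36890 to 69421 in K187R samples, with 0 of the 10 genes at 0 in any sample, and their highest, Lyz2, from 17025 to 57778. Summed B cell markers ran from 420 to 1535 and from 517 to 1970, natural killer cell markers from 1546 to 2412 and from 1414 to 2304, gamma delta T cell markers from 1176 to 1826 and from 1426 to 1872, and erythroid markers from 3.38 to 64.5 and from 9.04 to 84.5. The 12 markers of CD4 T cells and Th17 cells, among them Cd4, Cd3e, Trac and Il17a, summed to 133309 to 149591 in WT and 149653 to 173144 in K187R samples. These ranges did not overlap, but WT 4 (149591) and K187R 1 (149653) were nearly equal. The list mixes general T cell genes with genes of the Th17 state. For the T cell genes Cd4, Cd3e, Trac, Trbc1, Trbc2 and Thy1 taken singly, the groups overlapped, so the sum is no measure of the amount of CD4 T cell RNA. In such bulk samples, fewer cells of a type and less RNA per cell cannot be told apart.

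The question asked of the members was whether cells with K187R-ROR-γt carried other amounts of the TCR signalling transcripts than cells with WT-ROR-γt. In limma 0 of the 42 members passed an adjusted p of 0.05 (the smallest was 0.921), and the background over all 16982 genes was also 0 called (0%). edgeR called 0 members and 0 genes. DESeq2, run on the recovered reads, called 31 genes (0.183%) and 1 member, Cblb. At an unadjusted limma p under 0.05 there were 7 members, or 16.7%, against 4.39% of all genes: Ptpn6, Cd5, Rasgrp1 and Prkcq were higher in K187R samples, and Cblb, Sh2d2a and Sla were lower. This count was 3 without WT 1, without WT 2, without K187R 1 or without K187R 2. Over all 16982 genes the count was 329, 1453, 836 and 439 in those fits, in that order, and 746 with all 8 samples.

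The differences were small on the log2 scale. They ran from -0.32 for Sh2d2a to 0.31 for Ptpn6. Of the 42 members 29 differed by less than 10% between the groups, as did 9530 of all 16982 tested genes. A positive sign was seen in 30 members and a negative sign in 12, with a median of 0.034, while 48.4% of all tested genes were positive and their median was -0.0062. The median of the members was 0.067 without WT 4. The plot of the members' differences shows these values by role.

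**Figure D1:**
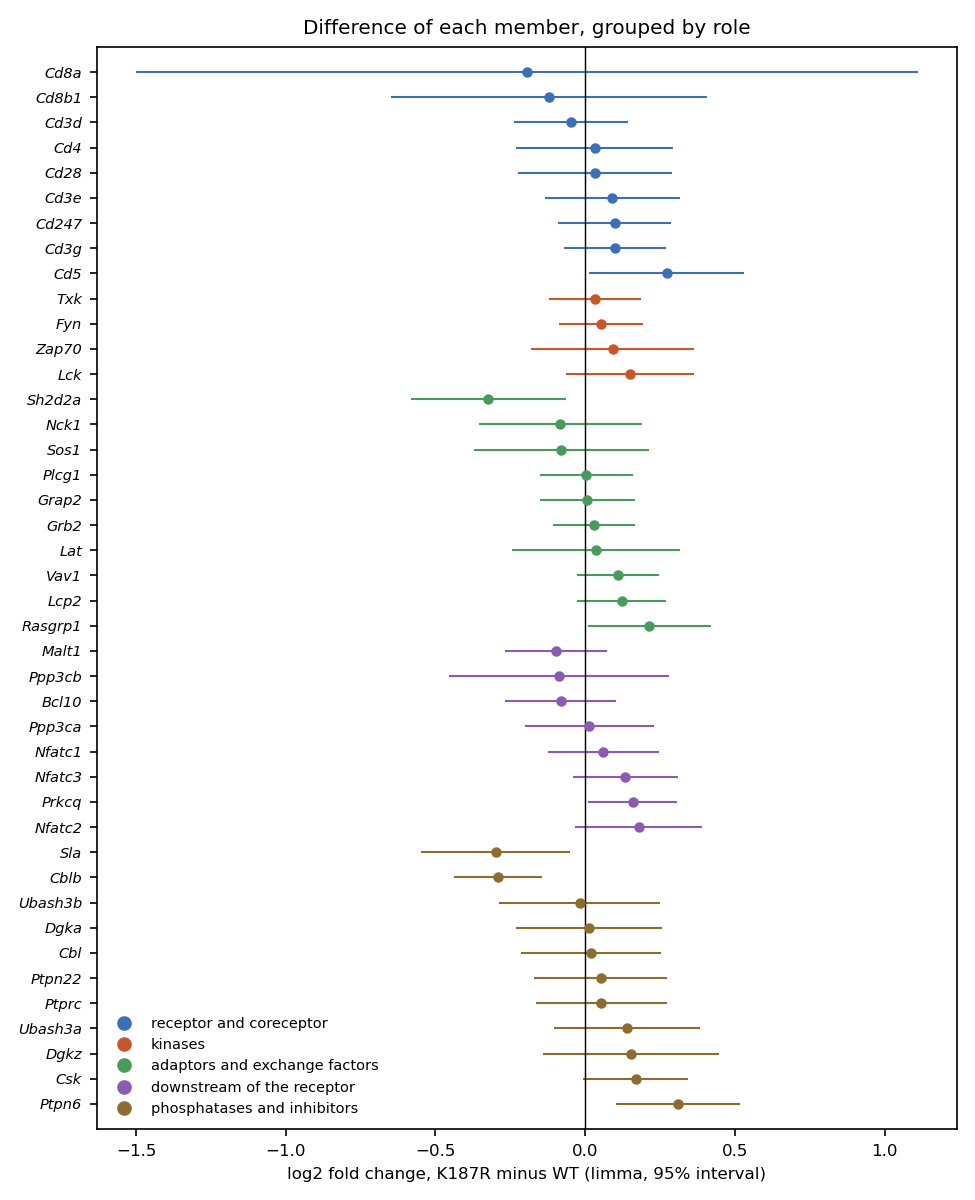
Log2 fold change of each of the 42 members (x axis, K187R minus WT, limma on log2(normalized count + 1)), with genes on the y axis grouped and coloured by role; bars are 95% confidence intervals. The points run from -0.32 to 0.31, and the interval excludes 0 for 7 members, Cblb, Sh2d2a and Sla on the left and Ptpn6, Cd5, Rasgrp1 and Prkcq on the right.

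The receptor, its coreceptors and Cd28 and Cd5 made up 9 members, of which 6 were positive and 3 negative and 1, Cd5, had an unadjusted p under 0.05. Cd3e (chr9:44998740-45009627, minus strand) encodes the CD3 epsilon chain, which pairs with the gamma and delta chains. Its normalized counts were 20844, 22977, 24292 and 26648 in WT samples 1 to 4 and 21893, 24455, 27404 and 27136 in K187R samples 1 to 4. The groups overlapped over most of their range, and the difference was 0.09 ± 0.10 (log2 fold change ± SE, limma adjusted p = 0.925).

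Cd3d and Cd3g lie next to Cd3e on chromosome 9. Cd3d gave 12366, 15043, 12275 and 13395 in WT and 12838, 11945, 12505 and 13960 in K187R samples, so the highest and the lowest value of the gene both fell in set 2, in WT 2 and in K187R 2. Cd3g gave 13474, 15817, 13410 and 14062 in WT and 14111, 15448, 15115 and 16055 in K187R samples, with WT 2 inside the range of the K187R samples. The log2 differences were -0.05 (95% interval -0.24 to 0.14) for Cd3d and 0.10 (-0.07 to 0.27) for Cd3g. That of Cd3d turned to 0.014 without WT 2.

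Cd247 (chr1:165788681-165877277, plus strand), the zeta chain with 3 of the 6 ITAMs shown above, had 8150, 9699, 8880 and 9251 normalized counts in WT and 8501, 9904, 10329 and 9820 in K187R samples. WT 1 and K187R 1 were the lowest of their groups, and the difference of 0.10 (95% interval -0.09 to 0.29) lay within the spread. Exons of Gm16565 and Pou2f1 overlap 60.3% of the exon length of Cd247, and whether the counting used strand is not given in the sources used here, so its level is uncertain. Trac, the constant region of the receptor's alpha chain, had 25543 ± 1861 in WT and 27315 ± 2213 in K187R samples, a log2 difference of 0.10 ± 0.08 (SE; limma adjusted p = 0.922).

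Cd4, the coreceptor for MHC class II, was at 17063, 18765, 18240 and 15147 in WT and at 15681, 19252, 20882 and 15335 in K187R samples. Both samples of set 3 and K187R 1 were low and those of set 2 high, in either group, and the log2 difference of 0.03 became -0.022 with the sample set as a term in limma. Cd8a, one of the CD8 coreceptor chains, was at 190, 132, 204 and 567 in WT and at 164, 133, 121 and 635 in K187R samples. Cd8b1, the other chain, was at 365, 271, 352 and 457 in WT and at 313, 254, 282 and 506 in K187R samples. Set 3 was thus the highest of each group for both chains, whereas the groups covered the same range. The difference of Cd8a was -0.19 with a 95% interval from -1.50 to 1.11, and it turned to 0.23 without WT 4. The purified cells were CD4+, and the 7 markers of CD8 T cells, which include Cd8a and Cd8b1, summed to 1975 to 2862 in WT and 2255 to 3269 in K187R samples. Crtam alone ran from 1150 to 1801, and Gzmk and Eomes were highest in the samples of set 2, unlike Cd8a and Cd8b1.

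Cd5 (chr19:10717116-10739002, minus strand) encodes a surface receptor that dampens TCR signalling and whose amount on T cells is known to follow the strength of that signal. It was at 17773, 19880, 20400 and 24666 normalized counts in WT and at 21566, 24047, 28079 and 26013 in K187R samples. WT 4 exceeded K187R 1 and K187R 2, so the groups overlapped. The mean was 20.5% higher in K187R samples, with a log2 difference of 0.27 ± 0.12 (SE), an unadjusted limma p of 0.0409 and an exact two-sided permutation p of 0.0857. Cd28, the main costimulatory receptor, showed 40282 ± 6535 in WT and 40914 ± 3099 in K187R samples (mean ± SD, n = 4 each), a difference of 0.03 (95% interval -0.22 to 0.29).

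The 4 kinases were all positive, and 0 of them had an unadjusted p under 0.05. Lck (chr4:129548344-129573641, minus strand), the Src family kinase that starts the cascade, was at 33912, 33164, 38388 and 42057 in WT and at 38690, 37815, 42470 and 44266 in K187R samples. The groups overlapped, since WT 4 was higher than K187R 1 and K187R 2, and the difference was 0.15 (95% interval -0.06 to 0.36). Zap70 (chr1:36761798-36782818, plus strand), which docks on phosphorylated ITAMs, was at 13223, 13906, 15417 and 18942 in WT and at 15491, 14360, 17540 and 17768 in K187R samples. WT 4 was the highest of all 8, and the difference was 0.09 (95% interval -0.18 to 0.36). Fyn, a second Src family kinase, differed by 0.05 and Txk, a Tec family kinase, by 0.03 on the same scale.

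Of the 10 adaptors and exchange factors, a role that here includes Plcg1, 7 were positive and 3 negative. Lat (chr7:126363824-126369570, minus strand), the membrane scaffold phosphorylated by Zap70, was at 21290, 19268, 24423 and 26838 in WT and at 22139, 19963, 25466 and 26349 in K187R samples. WT 2 and K187R 2 were the lowest and WT 4 and K187R 4 the highest of their groups, and the difference of 0.04 (95% interval -0.24 to 0.32) became -0.045 without WT 2. Lcp2, the cytosolic scaffold Slp-76, was at 20226, 18786, 20396 and 19479 in WT and at 20197, 22898, 21917 and 20914 in K187R samples. K187R 1 fell among the WT samples and the other K187R samples above them, with a difference of 0.12 (95% interval -0.03 to 0.27). Plcg1, the phospholipase that binds Lat and Slp-76, was at 30090, 27926, 31788 and 31203 in WT and at 29307, 30628, 32055 and 29263 in K187R samples, a difference of 0.0037 (95% interval -0.15 to 0.16) that became -0.034 without WT 2.

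Vav1 (chr17:57279100-57328031, plus strand), a guanine nucleotide exchange factor that binds Slp-76, was at 15697, 15329, 16532 and 16404 in WT and at 16912, 17429, 18005 and 16671 in K187R samples. The groups did not overlap, though K187R 4 was close to WT 3. The log2 difference was 0.11 ± 0.06 (SE), with an unadjusted limma p of 0.101 and an exact two-sided permutation p of 0.0286, the smallest that 4 against 4 samples can give.

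Rasgrp1 (chr2:117279993-117343001, minus strand) is the diacylglycerol-dependent activator of Ras in T cells. It was at 13456, 11819, 13458 and 12857 in WT and at 17699, 14301, 14126 and 13902 in K187R samples. All K187R samples were above all WT samples, and K187R 1 stood well above the other K187R samples. The log2 difference was 0.21 ± 0.09 (SE), with an unadjusted limma p of 0.0434 and an exact two-sided permutation p of 0.0286. Without K187R 1 the difference was 0.13, from fewer samples.

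Sh2d2a (chr3:87846755-87855722, plus strand) encodes the adaptor TSAd, which binds Lck. It had the lowest log2 difference of the 42 members. Its normalized counts were 19228, 17633, 22504 and 22653 in WT and 14526, 14653, 18139 and 18238 in K187R samples. WT 1, WT 3 and WT 4 were above every K187R sample, and the groups overlapped because K187R 3 and K187R 4 exceeded WT 2. The mean was lower by 20.1%, a log2 difference of -0.32 ± 0.12 (SE), with an unadjusted limma p of 0.0194 and an exact two-sided permutation p of 0.0857. Sos1, Nck1, Grap2 and Grb2 differed by between -0.08 and 0.03.

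**Figure D2:**
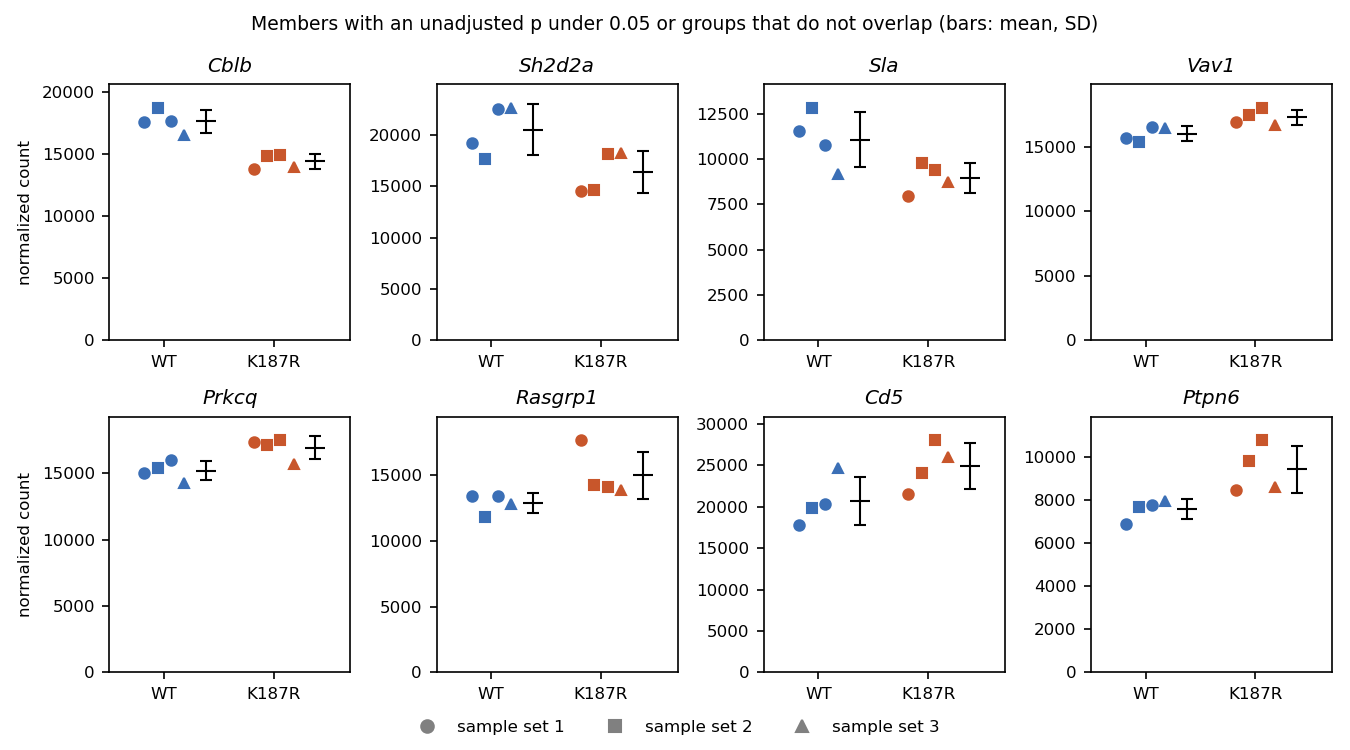
Normalized counts (y axis, from 0) of the 8 members with an unadjusted limma p under 0.05 or with groups that do not overlap; each point is 1 of 4 WT (blue) or 4 K187R (orange) samples, marker shape gives the sample set, and bars are mean and SD. Cblb, Vav1, Rasgrp1 and Ptpn6 have no overlap between the groups, Prkcq, Cd5, Sh2d2a and Sla do, and K187R 1 stands apart at 17699 for Rasgrp1.

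Of the 8 members further downstream 5 were positive and 3 negative. Prkcq (chr2:11172108-11301222, plus strand), protein kinase C theta, which couples the receptor to NF-κB, was at 14997, 15395, 15993 and 14287 in WT and at 17378, 17155, 17500 and 15677 in K187R samples. K187R 4 fell just below WT 3, and the other K187R samples were above every WT sample. The mean was 11.6% higher, a log2 difference of 0.16 ± 0.07 (SE), with an unadjusted limma p of 0.0405 and an exact two-sided permutation p of 0.0571. The partners of protein kinase C theta on the way to NF-κB, Bcl10 and Malt1, differed by -0.08 and -0.10. The transcription factors Nfatc1, Nfatc2 and Nfatc3 differed by 0.06, 0.18 and 0.13, and the calcineurin catalytic subunits Ppp3ca and Ppp3cb by 0.013 and -0.09, each with a 95% interval that includes 0.

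Of the 11 phosphatases and inhibitors 8 were positive and 3 negative, and Cblb and Sla were lower and Ptpn6 higher at an unadjusted p under 0.05. Cblb (chr16:52031225-52208048, plus strand) encodes the ubiquitin ligase Cbl-b, which restrains T cell activation in the absence of costimulation. Its normalized counts were 17610, 18735, 17658 and 16530 in WT samples 1 to 4 and 13817, 14868, 14938 and 13986 in K187R samples 1 to 4. Every K187R sample was below every WT sample, with the lowest WT sample, WT 4, still above the highest K187R sample, K187R 3. The mean was lower by 18.3%, a log2 difference of -0.29 ± 0.07 (SE). The unadjusted limma p was 0.00138 and the exact two-sided permutation p was 0.0286. Its adjusted p was 0.921 in limma, 0.945 in edgeR and 0.00868 in DESeq2, so the call depended on the tool. Across the 22 alternative settings the difference ran from -0.32 to -0.26. Its homologue Cbl differed by 0.02 (95% interval -0.21 to 0.25), and the difference between the homologues was not tested.

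Sla (chr15:66780819-66831829, minus strand) encodes the Src-like adaptor, which lowers the amount of the TCR at the surface by way of Cbl. It was at 11546, 12836, 10762 and 9182 in WT and at 7939, 9793, 9424 and 8722 in K187R samples. The groups overlapped because WT 4 was lower than K187R 2 and K187R 3. The mean was lower by 19.1%, a log2 difference of -0.30 ± 0.11 (SE), with an unadjusted limma p of 0.0233 and an exact two-sided permutation p of 0.0857. With the sample set as a term, DESeq2 called Sla (adjusted p = 0.0323) and Cblb (adjusted p = 0.0055), whereas limma and edgeR called no member. That DESeq2 fit called 144 of all 16982 genes, against 31 in DESeq2 without the set.

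Ptpn6 (chr6:124720707-124738714, minus strand), the phosphatase SHP-1, was at 6900, 7686, 7790 and 7943 in WT and at 8457, 9811, 10792 and 8630 in K187R samples. All K187R samples were above all WT samples, with K187R 2 and K187R 3 of set 2 the highest. The mean was 24.3% higher, a log2 difference of 0.31 ± 0.09 (SE), with an unadjusted limma p of 0.00801 and an exact two-sided permutation p of 0.0286. Ptpn6 is known to be abundant in myeloid cells, and the summed myeloid markers were 21606, 55224, 22067 and 65845 in WT and 36890, 48590, 53051 and 69421 in K187R samples. Lyz2 made up most of this sum, and Lyz2, Cd68, Fcgr3 and Itgam were highest in a sample of set 3. Csf1r, Adgre1, C1qa, C1qb, Cd14 and Mpo were highest in K187R 3, the sample with the highest Ptpn6. K187R 3 was also the highest sample for Cd3e, Cd4 and Cd5, among other members. All 10 myeloid markers were positive, with a median log2 difference of 0.47, but 0 of them had an unadjusted limma p under 0.05. The groups overlapped for all 10, and 3 of the 10 had the same sign in every sample set. In set 2 the myeloid sum was lower in K187R 2 and K187R 3 than in WT 2, while Ptpn6 was higher. Lyz2, Itgam and Fcgr3 went with the sum there. Csf1r, Adgre1, C1qa, Cd14 and Cd68 were instead higher in both K187R samples of set 2 than in WT 2. C1qb and Mpo were lower in K187R 2 and higher in K187R 3 than in WT 2. The part of myeloid RNA in the difference of Ptpn6 was not tested.

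The other phosphatases and inhibitors had 95% intervals that include 0. Csk, the kinase that inactivates Lck, had 15202 ± 1253 in WT and 17059 ± 908 in K187R samples, a difference of 0.17 (-0.0060 to 0.34). Dgkz and Dgka, which remove diacylglycerol, differed by 0.15 and 0.012, the phosphatases Ptprc (CD45) and Ptpn22 both by 0.05, and the Sts proteins Ubash3a and Ubash3b by 0.14 and -0.02.

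Groups that did not overlap were found for 4 members, Ptpn6, Rasgrp1, Vav1 and Cblb, or 9.52%, against 2.46% of all genes. Within the 3 sample sets the difference between K187R and WT had the same sign in every set for 15 members, 11 higher and 4 lower, or 35.7% against 23.3% of all genes. All 8 members in the plot of sample values were among these 15, but they were picked for their differences in these same samples. For the 4 whose groups did not overlap, the same sign in every set follows from that alone, so the shared signs are no separate support. For Cblb the within-set differences were -0.35, -0.33 and -0.24 in sets 1, 2 and 3, and for Prkcq they were 0.17, 0.17 and 0.13. They were less even for Ptpn6 (0.21, 0.42 and 0.12), Sla (-0.49, -0.42 and -0.07) and Sh2d2a (-0.52, -0.11 and -0.31). Set 3 holds 1 sample of each group, so no spread can be had there.

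**Figure D3:**
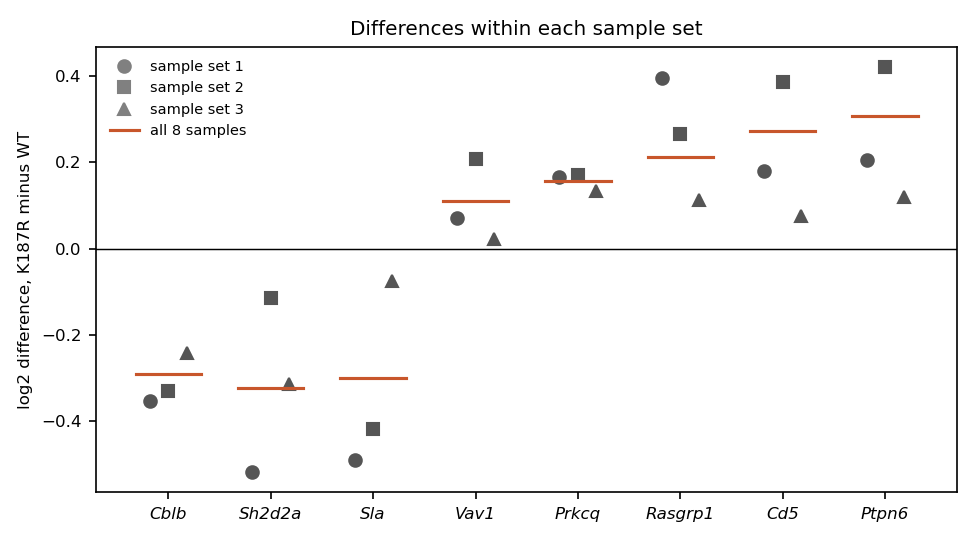
Difference in mean log2(normalized count + 1), K187R minus WT (y axis), within each of the 3 sample sets (marker shapes) for 8 members (x axis), with the difference over all 8 samples as a line. Markers of a gene share 1 sign for all 8 members, which the lack of overlap fixes for Cblb, Vav1, Rasgrp1 and Ptpn6. The markers of Cblb (-0.35, -0.33 and -0.24) and of Prkcq (0.17, 0.17 and 0.13) lie close together.

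For most members, as for most genes, the share of variance between the sample sets was larger than that between the groups. This comparison cannot rank the sets against the groups. The sets were formed by clustering these same samples, so a large set share was built in for the clustered genes and favoured for the members. There are also more sets than groups, which by itself raises the set share. The sets hold the groups in unequal numbers, so the shares of a gene overlap and are not parts of a whole. The median share of variance that lay between the sets was 50.6% for the members, against 51.6% for all genes, and the median share between the groups was 9.9% against 9.11%. The set share was the larger in 32 of the 42 members (76.2%), against 85.5% of all genes. Cblb was among the 10 for which the reverse held, with 86.5% of the variance between the groups and 6.20% between the sets. At the other end, 98.8% of the variance of Cd8a and 94.5% of that of Cd8b1 lay between the sets. The heat map of the members shows the sets side by side.

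**Figure D4:**
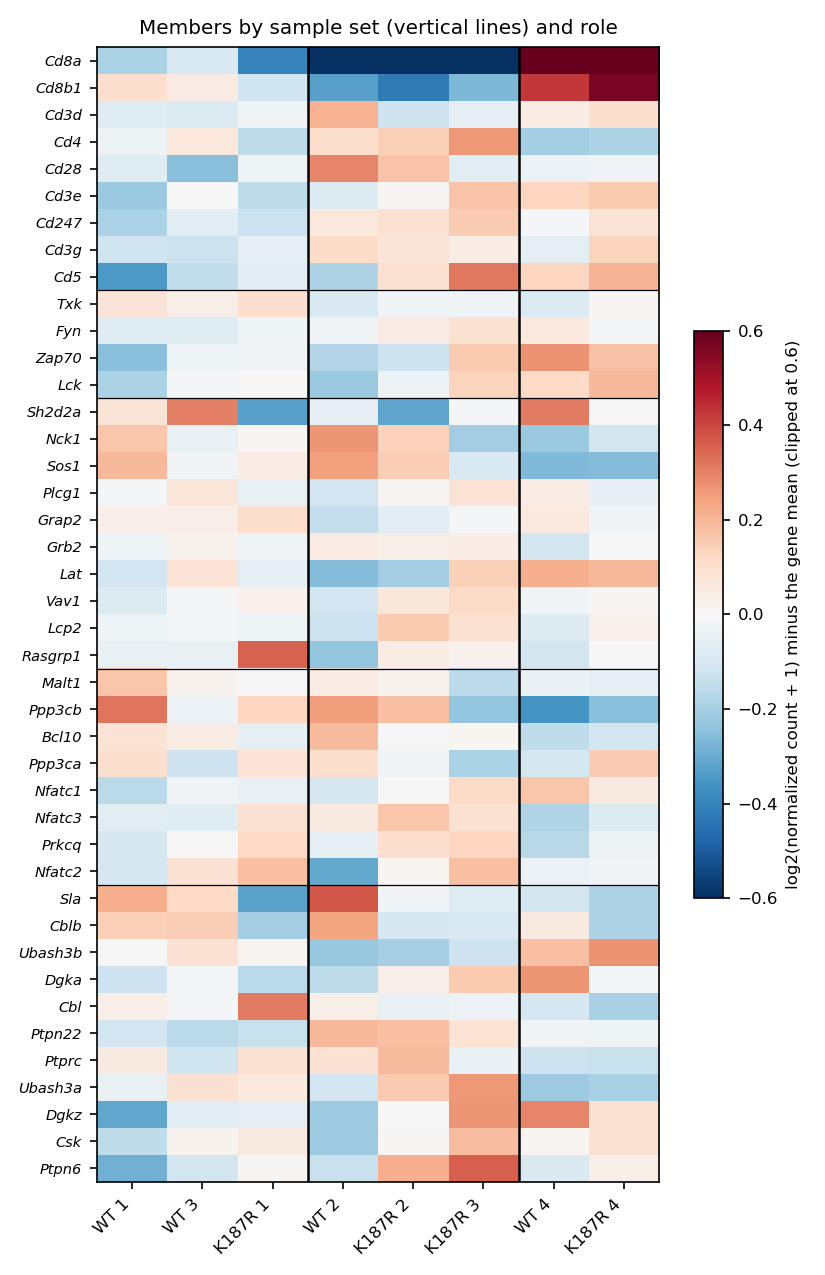
Log2(normalized count + 1) of the 42 members (rows, grouped by role with horizontal lines) minus the mean of each gene, in the 8 samples (columns, ordered by sample set with vertical lines); red is above and blue below the mean, clipped at 0.6. Cd8a and Cd8b1 are highest in WT 4 and K187R 4, and Cblb is above its mean in all 4 WT and below it in all 4 K187R samples.

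Levels between genes were compared as normalized counts per kb of exon. Lck stood highest at 13262, above 99.1% of the tested genes, followed by Dgka at 10304, Lat at 8391, Cd3d at 7185 and Ptprc at 7169. The lowest were Ppp3ca at 339, Cd8b1 at 236 and Cd8a at 73.8. Cd4, at 4352 per kb, thus exceeded both CD8 chains in every sample. In this order the ranges over the 8 samples of neighbouring members overlapped, except between Bcl10 (874) and Nck1 (579) and between Nck1 and Txk (419), so the order is resolved only coarsely. The 3 CD3 chains ran from 4493 for Cd3g to 7185 for Cd3d, whereas Cd247, with its uncertain count, was at 1748.

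**Figure D5:**
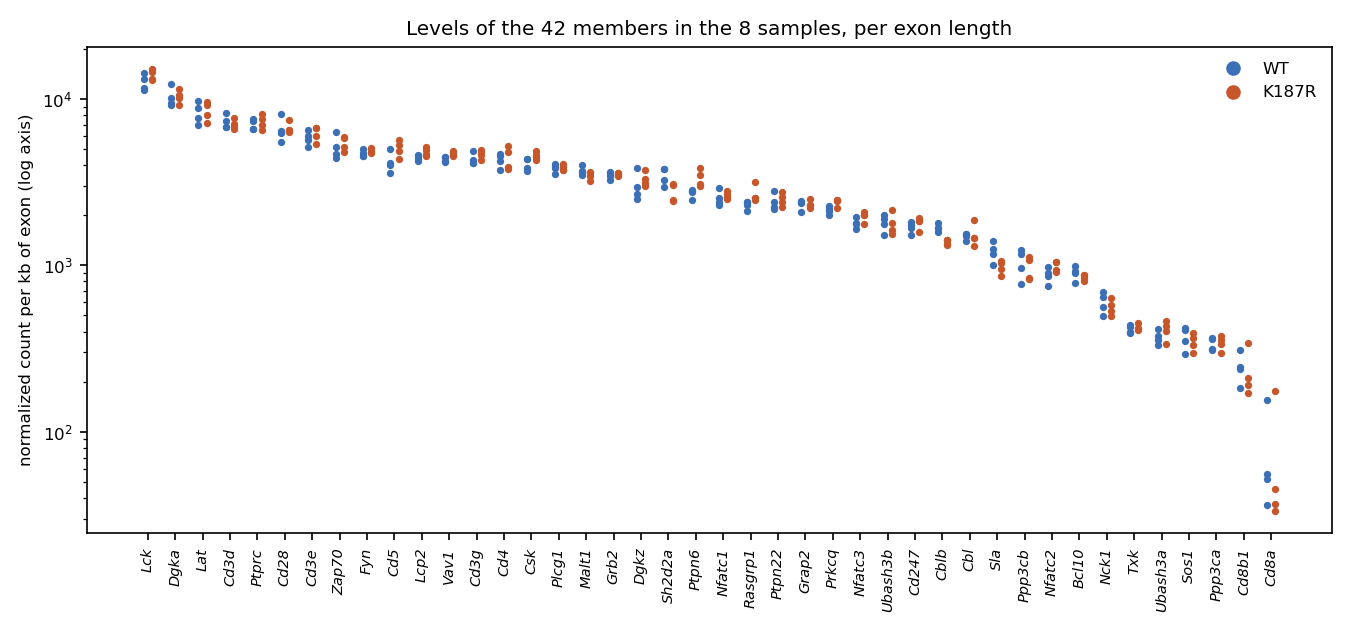
Normalized count per kb of exon (y axis, log scale) of the 42 members (x axis, ordered by mean) in each of 4 WT (blue) and 4 K187R (orange) samples. Levels run from a mean of 13262 for Lck to 73.8 for Cd8a, and the points of both groups lie over each other for nearly every member.

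ROR proteins are known to bind DNA that carries the letters AGGTCA. In RefSeq promoters (GRCm38.p6, 250 bases before to 50 bases after the start site), available for 34 of the members, AGGTCA was present on either strand in 7 of the 50 member promoters (14%), against 16.3% of all promoters. Counted by gene, it was present in 20.6% of these members and in 15.1% of the 10827 tested genes with a promoter. The 7 genes were Zap70, Ubash3b, Nck1, Dgka, Lcp2, Grap2 and Vav1. No promoter entry was used for Cd28, Cd4, Cd8b1, Malt1, Nfatc1, Ppp3ca, Sh2d2a and Sla. The matches in core members of the cascade and in Vav1, the only one of the 7 with groups that did not overlap, are shown in the direction in which the motif reads, with the motif in capitals.
Zap70, chr1:36778734-36778758, minus strand, motif at -243 to -238 from a RefSeq start site inside the gene: ctctgaggctaaAGGTCAcagggtc
Lcp2, chr11:34046716-34046745, plus strand, motif at -200 to -195: tggtggggaaggAGGTCAgaaaacattgag
Vav1, chr17:57278966-57278995, plus strand, motif at -122 to -117: tggagaaagacgAGGTCAcaccagtgagtg
A match describes the letters of the window and is not evidence of binding.

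Further lists give the surroundings of the members. Of 69 other genes of the TCR pathway, all tested, 0 passed in limma, edgeR or DESeq2, and 6 (8.7%) had an unadjusted limma p under 0.05, against the background of 4.39%. The sign was positive for 5 of the 6 and negative for 1. Among the higher ones were the adaptors Lax1 and Skap1, with log2 differences of 0.29 and 0.20, and the calcium channel genes Orai2 and Itpr2, with 0.24 and 0.18. Of 20 genes that TCR stimulation is known to induce, 0 passed in limma or edgeR, DESeq2 called 1, and 3 (15%) had an unadjusted limma p under 0.05, all of them lower. Nr4a2, a nuclear receptor of the immediate response, had 3116, 2463, 3076 and 2768 normalized counts in WT and 1914, 2049, 1954 and 2289 in K187R samples, without overlap (log2 difference -0.47, exact two-sided permutation p = 0.0286). It was the gene that DESeq2 called (adjusted p = 0.0091). Tnfrsf9, the costimulatory receptor 4-1BB, differed by -0.44, also without overlap, and Nr4a3 by -0.45 with overlap. The median log2 difference was 0.016 over the 69 pathway genes and -0.07 over the 20 induced genes.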

How the data were processed

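RNA of 8 samples was sequenced by the authors (poly-A enriched libraries, paired reads). The study's methods name the KAPA mRNA HyperPrep kit, whereas the labels name another library kit. Per its methods, the authors used Cutadapt for trimming, HiSat2 for alignment to GRCm38, featureCounts with GENCODE M15 for counting, and DESeq2. Each deposited value is a signal, namely a gene's count over the size factor of its sample. The strand setting and the handling of reads that match several genes are not given in the sources used here. All values (100%) were whole reads within 0.001 of a read once the size factor was removed, so reads could be recovered. Every listed gene had at least 10 reads in sum over the samples. Depth ranged from 52456804 to 74676721 reads on genes per sample.

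Groups and replicate numbers follow the labels. The main test was limma (lmFit, eBayes with trend, two-sided) on log2(normalized count + 1) for 16982 genes (mean 10 or more), with Benjamini-Hochberg adjustment over all of them and a threshold of 0.05. Fold changes are on that scale and understate the change of low genes. Single members also received an exact two-sided permutation test over the 8 samples. The 22 alternatives comprised TMM scaling, quantile normalization, pseudocounts of 0.5 and 5, a minimum mean of 50 or no minimum, the replicate number as a block, the sample set as a term, each of the 8 samples left out, edgeR and DESeq2 on recovered reads, and each of these with the block or the set. The sample sets came from average-linkage clustering without the members, cut into 3. Coordinates, exon lengths and transcripts are those of GENCODE M21, which holds 22784 of the listed genes. The limma, edgeR and DESeq2 fits were tested on simulated data with planted changes larger than that of any member and without sample sets. Differences as small as those of the members were not covered by that test.

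The members and the lists were chosen with earlier results of these data known. By rule, all 8 values are given for members called in any fit, with an unadjusted limma p under 0.05 or with groups that do not overlap, for the 3 largest differences in each direction, and for the receptor chains, coreceptors, Lck, Zap70, Lat, Lcp2 and Plcg1. Of the other lists, genes with an unadjusted p under 0.05 are named, at most 6 a list. Some results that this rule covers are not reported here. Trac and the remaining members were named beyond the rule, to complete a role. Fits used limma 3.58.1, DESeq2 1.42.0 and edgeR 4.0.16 in R 4.3.3, and summaries used scipy 1.17.1, pandas 2.3.3 and numpy 2.4.6 in Python 3.11.15, with matplotlib 3.10.9 for plots.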

Additional observations from a re-analysis of the deposited data

Results flagged for a closer look

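In 4 of the 84 groups of 4 values (42 members in 2 groups) 1 sample stood apart from the other 3 by Dixon's test at the 95% level, and chance flags about 1 in 20 groups. Cd8a was at 567 normalized counts in WT 4, where the other WT samples were at 132 to 204. Cd8a was also at 635 in K187R 4, where the other K187R samples were at 121 to 164. WT 4 and K187R 4 form set 3, so Cd8a was high in that set in both groups, and Cd8b1 was highest there as well. Grap2, an adaptor that links Lat to Slp-76, was at 13142 in WT 2 and at 14820 to 15133 in the other WT samples. Rasgrp1 was at 17699 in K187R 1 and at 13902 to 14301 in the other K187R samples. The cause of these values was not tested.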

How the results depend on the processing

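The direction held under all 22 alternatives for 27 of the 42 members, among them Cblb, Sh2d2a, Sla, Ptpn6, Cd5, Rasgrp1, Prkcq and Vav1. These named members were picked for their differences in the same samples that the alternatives fit again. Their steady direction is therefore no separate support. Genes called over the whole table numbered 0 in limma, 31 in DESeq2, 144 in DESeq2 with the sample set, 1 in limma with the set and 1 in edgeR with the set, and 0 to 4 with 1 sample left out (4 without WT 4). Members called numbered 1 in DESeq2 and 2 with the set, and induced genes called 1 and 2. Members with an unadjusted p under 0.05 numbered 3 to 7 with 1 sample left out, while such genes over the whole table numbered 329 to 2181. In these fits the median log2 difference of the members was 0.027 to 0.067. The sign turned for Cd4 once the set was a term (-0.022 in limma, -0.021 in edgeR, -0.022 in DESeq2), and with 1 sample left out the log2 differences ran from -0.049 to 0.10 for Cd4, from -0.74 to 0.23 for Cd8a, from -0.045 to 0.11 for Lat, from -0.034 to 0.028 for Plcg1 and from -0.090 to 0.014 for Cd3d. Why these moved was not tested. Samples with the same replicate number deviated together for numbers 1, 2 and 4 (correlations 0.592, 0.663 and 0.63) but not for number 3 (-0.0922), and WT 3 correlated best with K187R 1 (0.431), so the numbers were not taken as pairs. With the replicate block the members with an unadjusted p under 0.05 numbered 11 in limma, 12 in edgeR and 11 in DESeq2. Over all 16982 genes the block raised this count as well, to 2046, 1930 and 1758 in the same order, from 746 in the main limma fit. With the block DESeq2 called 182 genes, 4 members (Cblb, Cd5, Ptpn6 and Sh2d2a) and 4 induced genes, and limma and edgeR called none. Set 3 holds 1 sample of each group and gives no spread of its own. Depth did not limit the members: the lowest value, Cd8a at 121 normalized counts, was above the 3.56 that 3 reads were worth at most.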
